A study of Mus musculus with 8 samples.

Results

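The genes described here are 39 members of the nuclear receptor family, taken by name from a list that leaves out the ERR genes themselves. They are 39 of the 21896 protein-coding genes of the mouse RefSeq annotation. A receptor gene was counted as bound in a sample when the ERRα peak list of that sample held an interval annotated to it whose centre lay within 20 kb of the TSS. Unless a larger distance is stated, the peaks counted for a gene are those within 20 kb. Of the 39 genes, 36 were bound in at least 1 of the 4 peak lists, against 66.7% of all protein-coding genes and 88.5% of those that any list names. *Pgr* and *Hnf4g* had peaks farther away only, and *Nr1i3* had none in any list.

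The lists come from ERRα ChIP-seq, in which chromatin fragments carrying ERRα are pulled down with an antibody and sequenced. Skeletal muscle (gastrocnemius and soleus) and liver were taken from male C57BL/6N mice of 2 to 3 months, either WT or carrying the ERRα 3SA phospho-mutant, in which serine residues of the amino-terminal domain can no longer be phosphorylated. Chromatin was pooled from 5 mice for each muscle sample and from 2 mice for each liver sample, 3 immunoprecipitations were pooled per sample, and input DNA of the same tissue and genotype served as the control in peak calling. Each tissue and genotype is therefore 1 library and 1 list, with no replicate, so no p-value between genotypes or tissues can be given, and genotype cannot be told apart from the library.

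Nuclear receptors are transcription factors with a shared DNA-binding domain and a ligand-binding domain. Thyroid hormone, retinoic acid, fatty acid, oxysterol and bile acid receptors pair with RXR on repeated hexamers, steroid receptors pair with themselves, and orphan receptors such as ERRα can bind a single extended site, the ERR response element. ERRα is best known for driving mitochondrial and fatty acid oxidation genes in muscle and liver, and receptor genes are among the known targets of other receptors.

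The sites with the highest ranks are shown first. Each sequence was read from GRCm38.p6 (mm10), 5′ to 3′ on the stated strand. The longest is the 250 bases upstream of the *Rarb* start, since the strongest muscle peak of any receptor gene in WT covered it. Capitals mark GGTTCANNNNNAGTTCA, a direct repeat spaced by 5 bases that is known from this promoter as a retinoic acid response element. It lies 53 to 37 bp upstream of the start, inside the called interval of all 4 lists.
Rarb promoter, chr14:16575477-16575726, minus strand: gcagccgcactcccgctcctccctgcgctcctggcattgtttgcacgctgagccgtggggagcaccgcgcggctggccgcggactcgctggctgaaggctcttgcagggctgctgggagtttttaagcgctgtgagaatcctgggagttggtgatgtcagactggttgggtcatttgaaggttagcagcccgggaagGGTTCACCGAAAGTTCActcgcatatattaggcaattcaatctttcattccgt
This repeat, searched on both strands, was present in 2 of 32851 RefSeq promoter sequences (0.00609%), and *Rarb* was the only receptor gene with it among the 35 that matched a promoter sequence. The pattern was taken from this promoter's own element, so its presence at *Rarb* was given in advance. The count covers this exact pattern and not other direct repeats spaced by 5 bases.

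The other sites shown were chosen because they hold the shorter core AAGGTCA, which is part of the ERR response element TCAAGGTCA. Not all receptor peaks in the top 10% of a list did. *Nr4a1* at rank 2721 and *Nr1h2* at rank 4392 in 3SA muscle, for example, had no AAGGTCA in the central 300 bp. Capitals mark the core in the first lines below and the whole element in the last 3, which are shown because they are the elements inside receptor peaks ranked in the top 10% of a list.
Thra intron 2, chr11:98755035-98755061, plus strand: gaccctggccAAGGTCActgtgtcagt
Rara intron 1, chr11:98941736-98941762, plus strand: aaagttgtctAAGGTCAggcagcctca
Ppara promoter, chr15:85735210-85735236, minus strand: gggactgcccAAGGTCAcccgacgggg
Ppara upstream, chr15:85725354-85725380, minus strand: ctcgtacaggAAGGTCAtcaccaggca
Nr2f6 upstream, chr8:71383521-71383547, minus strand: ccacaaccacAAGGTCAaatgtcacct
Nr3c2 intron 2, chr8:76920884-76920910, plus strand: gtgattctgcAAGGTCAactgaagggc
Nr4a1 upstream, chr15:101265905-101265933, minus strand: tggtacttgtTCAAGGTCActaagctagg
Ppard intron 2, chr17:28248997-28249025, minus strand: gacatggagtTCAAGGTCAtccttagctt
Nr0b2 downstream, chr4:133563442-133563470, plus strand: ctgaagggagTCAAGGTCAacaacgggga
The core of the *Thra* intron and that of the *Ppara* promoter lay inside the interval of all 4 lists, and that of *Nr3c2* inside 3.

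The lists held 25427 peaks in WT muscle, 50647 in 3SA muscle, 21813 in WT liver and 29040 in 3SA liver. Receptor genes took 44, 68, 52 and 77 of the peaks within 20 kb, in the same order. Scores are whole numbers from 30 upward and served only to rank peaks within a list. Rank 1 is the highest score, tied peaks share the best rank of the tie, and ranks are also expressed as a percentage of the list, counted from its top. Since 3SA muscle has the longest list, the same rank number there is a smaller percentage. The lists give no read numbers, so depth is unknown, and all intervals given with shares below are 95% Wilson intervals that cover counting error only. As a check of the tissue labels, peaks in the top 10% of the list lay within 20 kb of 9 of 12 skeletal muscle marker genes in WT muscle and 8 in 3SA muscle, against 1 in WT liver and 0 in 3SA liver. Of 12 liver marker genes, 2 and 1 had such a peak in the liver lists and 1 and 0 in the muscle lists, so the liver label was marked less clearly by this count. Peaks of any rank separated the tissues less, as 10 and 11 muscle markers were bound in WT and 3SA muscle and 7 in each liver list, and 6 and 8 liver markers in WT and 3SA liver against 1 in WT muscle and 7 in 3SA muscle.

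**Figure D1:**
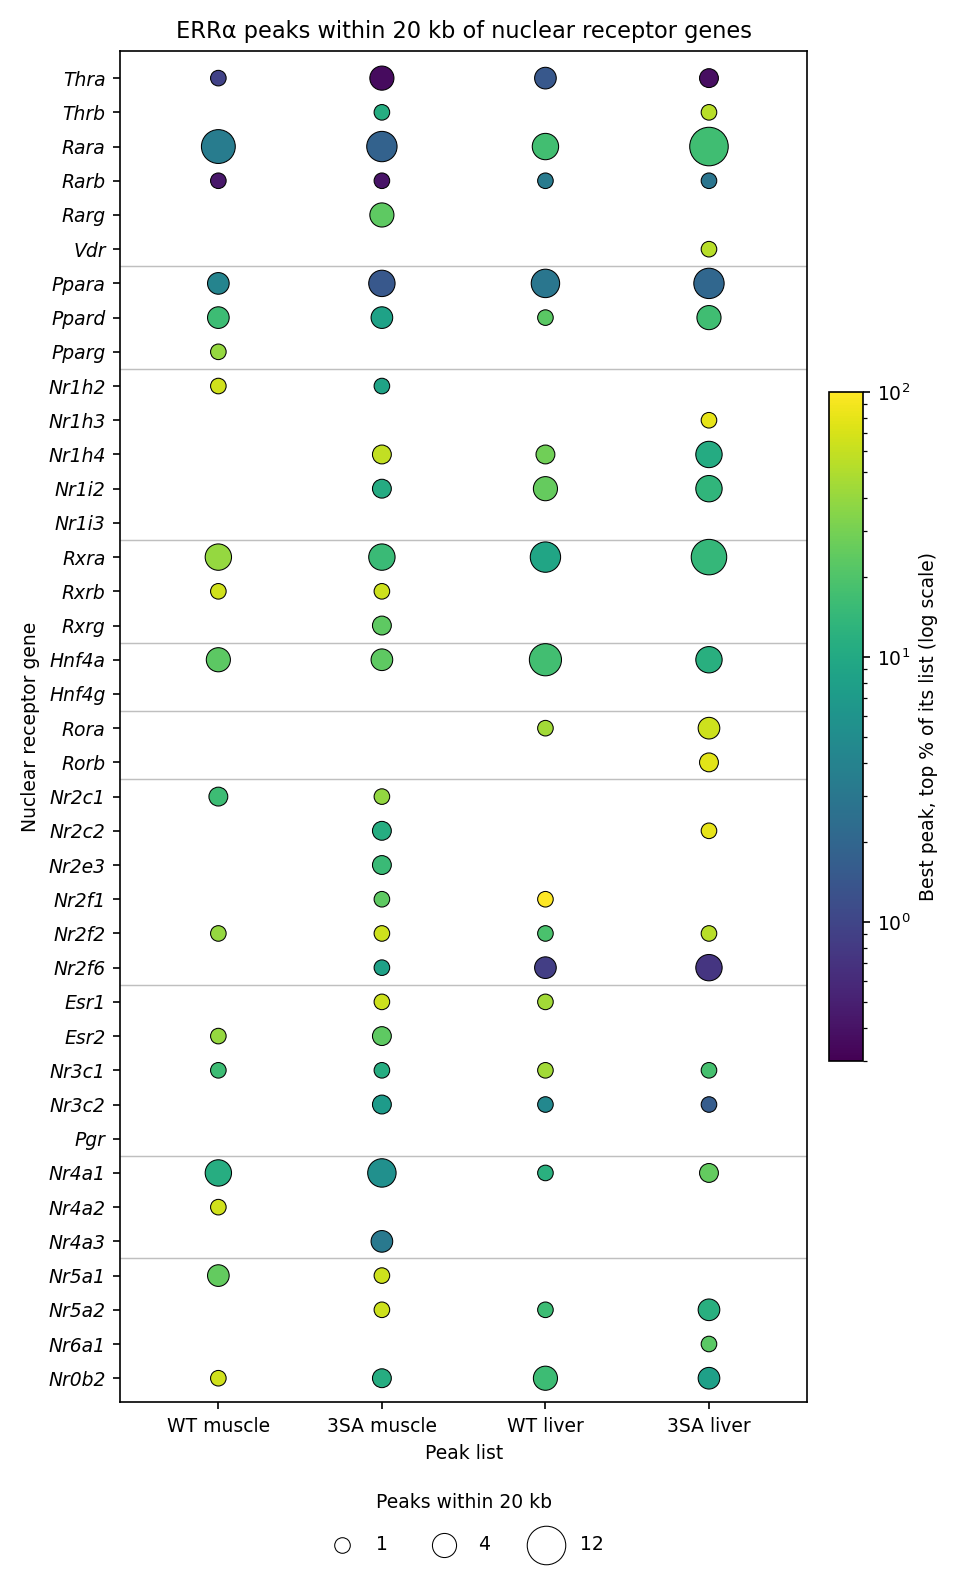
Best ERRα peak within 20 kb of each of the 39 receptor genes (rows, grouped by class with grey lines) in the 4 peak lists (columns). Colour gives the top percentage of the list on a log scale, darker being a higher rank, circle area grows with the number of peaks, and an empty position means no peak within 20 kb. *Thra*, *Rarb* and *Ppara* are dark in all 4 columns, *Nr2f6* is darkest in liver, and *Nr1i3*, *Hnf4g* and *Pgr* are empty.

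In muscle, 18 of the 39 receptor genes were bound in WT (46.2%, 31.6–61.4) and 29 in 3SA (74.4%, 58.9–85.4). The background over all protein-coding genes was 34.5% and 47.9%. In liver, 19 were bound in WT (48.7%, 33.9–63.8) and 23 in 3SA (59.0%, 43.4–72.9), against backgrounds of 29.9% and 37.7%. The share of receptor genes was above the background in all 4 lists, and of these backgrounds only that of WT muscle lay inside the interval of the receptor share. Over the 19188 genes that any list names, the background was 45.1%, 63.5%, 39.2% and 49.2% and lay inside the interval of the receptor share in every list. When all lists were shortened to the 21813 best-scoring peaks, 16 and 23 receptor genes were bound in WT and 3SA muscle and 19 in each liver list. Over all protein-coding genes the shares were then 30.8% and 28.8% in WT and 3SA muscle and 29.9% and 31.4% in WT and 3SA liver. The cut fell among peaks of equal score in every list but WT liver, which was kept whole. Which of the tied peaks were kept followed the order of the deposited list. In WT muscle, *Rxrb* and *Nr4a2* were kept and *Nr1h2* and *Nr0b2*, whose peaks had the same score, were not.

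A peak in the top 10% of its list was less common. It was found at 4 receptor genes in WT muscle, 10 in 3SA muscle, 6 in WT liver and 6 in 3SA liver, with backgrounds of 5.76%, 9.75%, 5.14% and 6.78%. The 4 in WT muscle are 10.3% of the receptors (4.06–23.6) and the 10 in 3SA muscle 25.6% (14.6–41.1). The 6 in either liver list are 15.4% (7.25–29.7). Only in WT muscle did the background lie inside the interval. Over the genes that any list names, it was 7.51%, 12.7%, 6.61% and 8.73%, in the same order. Those of WT muscle and 3SA liver lay inside the interval. *Thra*, *Rarb* and *Ppara* belonged to all 4 sets. The median of the best peaks of bound receptor genes was at the top 23.9% in WT muscle, 11.0% in 3SA muscle, 17.4% in WT liver and 16.7% in 3SA liver. Over all bound genes it was at 39.1%, 23.7%, 37.6% and 34.0%. Bound receptor genes had a median of 1 peak in each WT list and 2 in each 3SA list, up to 12 for *Rara* in 3SA liver. Over all bound genes the median was 1 in every list. The best of more peaks tends to rank higher, and the medians of best peaks were not adjusted for this.

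Among the thyroid hormone and retinoic acid receptors, *Thra* and *Rarb* held the best-ranked receptor sites of both muscle lists and *Thra* that of 3SA liver. *Thra* encodes the thyroid hormone receptor that predominates in muscle. Its strongest site lay in intron 2 of 8, 12904 to 13207 bp from the TSS. The interval was chr11:98754740-98755245 in WT muscle with a score of 350 and rank 238 of the list. In 3SA muscle it was chr11:98754615-98755321, with a score of 685 and rank 181. In liver the intervals were chr11:98753904-98755475 in WT, with a score of 580 and rank 320, and chr11:98754339-98755515 in 3SA, with a score of 1265 and rank 108. The site was therefore in the top 1.47% of every list, and in both tissues each genotype's peak had a partner in the other genotype, meaning a peak with its centre within 300 bp. The nearest other gene is *Nr1d1*, whose body lies 12939 to 13242 bp from the centres. A further site 297 to 492 bp upstream of the *Thra* TSS was called in 3SA muscle and in both liver lists but not in WT muscle, at ranks 11987, 3500 (WT liver) and 3426 (3SA liver), and it held TCAAGGTCA in all 3 intervals.

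*Rarb*, a retinoic acid receptor that retinoic acid itself induces, had 1 peak within 20 kb in each list, at the TSS. The intervals were chr14:16574786-16575968 in WT muscle with a score of 613, chr14:16574860-16575889 in 3SA muscle with 632, chr14:16575320-16575993 in WT liver with 348 and chr14:16574850-16575854 in 3SA liver with 448. They ranked 110, 206, 718 and 826, so the site stood within the top 0.433% of both muscle lists and at the top 3.29% and 2.84% of the liver lists. The muscle peaks were partners of each other. The liver intervals share bases, but their centres lay more than 300 bp apart, so by that rule they were not partners. None of the 4 peaks held AAGGTCA within the central 300 bp.

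*Rara*, the broadly expressed retinoic acid receptor, had the most peaks of any receptor gene in 3 lists, with 9 in WT muscle, 7 in 3SA muscle and 12 in 3SA liver. In WT liver it had 5, fewer than *Hnf4a*, *Rxra* and *Ppara*. The strongest muscle site lay in intron 1 of 8, at chr11:98941369-98942098 in WT with a score of 127 and rank 862, and at chr11:98941343-98942368 in 3SA with a score of 214 and rank 928. The same site was called in 3SA liver at rank 12740 and not in WT liver. The best liver peaks of *Rara* were at ranks 3798 and 4837, the top 17.4% and 16.7%, so *Rara* ranked higher in the muscle lists. Another *Rara* site 10930 to 11220 bp downstream of a TSS was called in all 4 lists, at the top 10.8% to 37.6%. *Thrb*, *Rarg* and the vitamin D receptor gene *Vdr* were bound within 20 kb in 3SA lists only. Beyond 20 kb, *Thrb* had peaks in both WT lists and *Vdr* had 1 in WT muscle. *Thrb* had a promoter peak at rank 5574 in 3SA muscle and an intron peak at rank 15499 in 3SA liver, *Rarg* had 4 peaks in 3SA muscle, the best at rank 11987, and *Vdr* had 1 peak in 3SA liver at rank 15499.

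Among the fatty acid receptors, *Ppara*, the main activator of fatty acid oxidation genes in liver, was bound near its start in all 4 lists. The promoter intervals were chr15:85734477-85736007 in WT muscle with a score of 108, chr15:85734513-85736004 in 3SA muscle with 231, chr15:85734151-85736011 in WT liver with 380 and chr15:85733856-85736397 in 3SA liver with 559. Their ranks were 1058, 859, 633 and 591, at the top 4.16%, 1.70%, 2.90% and 2.04% in the same order. The genotypes were partners in both tissues. In 3SA muscle an interval 10204 bp upstream, chr15:85724847-85725874, ranked higher still, at 733 with a score of 260, and it had a WT partner. Farther upstream, a liver region was called at chr15:85722145-85723444 in WT with rank 1549 and at chr15:85721350-85723472 in 3SA with rank 964. These upstream intervals lay 9549 to 12499 bp outside the gene body and at least 81611 bp from the next gene, *Cdpf1*. In WT muscle the other top-ranked *Ppara* peak was in intron 2, at rank 2194, with no 3SA partner.

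*Ppard*, the PPAR that is most abundant in muscle, had a site in intron 2 of 7, 8235 to 8564 bp from the TSS, in all 4 lists. Its intervals were chr17:28240903-28241425 in WT muscle with a score of 49 and rank 4057, chr17:28240785-28241852 in 3SA muscle with a score of 67 and rank 4317, chr17:28240840-28241234 in WT liver with a score of 75 and rank 4981, and chr17:28240789-28241190 in 3SA liver with a score of 119 and rank 4837. The 3SA muscle list held a further peak, chr17:28248651-28249193, with a score of 65 and rank 4392, which contains the element printed above and had no WT partner. *Pparg*, the adipocyte PPAR, had a promoter peak in WT muscle alone, at rank 10219.

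Of the 5 oxysterol, bile acid and xenobiotic receptors, *Nr1h4* (FXR) and *Nr1i2* (PXR), which sense bile acids and drugs in liver, were bound in both liver genotypes and in 3SA muscle. *Nr1h4* had 2 peaks in WT liver and 5 in 3SA liver, with best ranks of 6227 and 3042. *Nr1i2* had 4 and 5, with best ranks of 5512 and 3885 at the same intron 1 site, 7070 and 7031 bp from the TSS, where the WT rank was tied with that of a promoter peak. In 3SA muscle their best ranks were 29571 and 5260. The *Nr1i2* peaks of 3SA muscle were annotated to introns of *Maats1*, so they belong to *Nr1i2* by nearest TSS only. *Nr1h3* (LXRα) had a single low-ranked peak in 3SA liver, at rank 23394. *Nr1h2* (LXRβ), the broadly expressed oxysterol receptor, was bound in both muscle lists and in neither liver list, but at different places. The WT muscle peak was chr7:44551224-44552106 in an exon, with the lowest score of the list, and the 3SA muscle peak was chr7:44559719-44560432, 6110 bp upstream in a B1 repeat, with a score of 65 and rank 4392.

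*Rxra*, the common partner of these receptors, carried 5 peaks in each muscle list, 7 in WT liver and 10 in 3SA liver. None of the muscle peaks were partners, whereas 3 sites were shared between the liver genotypes. Its best peak was chr2:27721256-27721798 in WT liver, in intron 1 of 9, with a score of 168 and rank 1969. The partner in 3SA liver, chr2:27721158-27722085, had a score of 89 and rank 6623. *Rxrb* had 1 peak in each muscle list and none in liver, chr17:34032163-34032579 at the TSS in WT and chr17:34032845-34033397 in intron 2 in 3SA, both with the lowest score of their list and not partners. *Rxrg*, the RXR of muscle and brain, had 2 peaks within 20 kb in 3SA muscle alone, both at rank 11987. Farther out, *Rxrg* had peaks in both muscle lists.

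*Hnf4a*, which maintains the hepatocyte programme, was bound in all 4 lists without reaching the top 10% of any. It had 4 and 3 peaks in WT and 3SA muscle and 8 and 5 in WT and 3SA liver. The best liver site, in intron 5, was shared by both genotypes at ranks 3798, tied in WT with an exon peak, and 3384, and in 3SA liver it held TCAAGGTCA within the central 300 bp. The same element lay inside the WT liver interval too, but outside its central 300 bp. *Rora*, a receptor active in the clock and in liver metabolism, was the only receptor gene bound within 20 kb in both liver genotypes and in neither muscle list. It had peaks farther out in all 4 lists. The partner peaks within 20 kb were chr9:69290805-69291440 in WT liver with a score of 44 and rank 9851, and chr9:69290646-69291381 in 3SA liver with a score of 32 and rank 23394. *Rorb* had 2 peaks within 20 kb in 3SA liver alone, the better at rank 22579, and peaks farther out in all 4 lists.

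*Nr2f6*, an orphan receptor of the COUP-TF group, had the highest-ranked site of any receptor gene in WT liver. The intervals were chr8:71382944-71384110 in WT liver with a score of 761 and rank 187, and chr8:71382499-71384327 in 3SA liver with a score of 950 and rank 213. They were partners, at the top 0.857% and 0.733%. The distance from the *Nr2f6* TSS was 1575 and 1461 bp on the upstream side, and the centres were only 747 and 861 bp from the body of *Ushbp1*, at whose 3′ end the authors' annotation placed them, so the assignment to *Nr2f6* is by nearest TSS only. No interval at this upstream site was called in either muscle list. A lower-ranked site 959 to 1099 bp downstream of the TSS was called in both liver lists, at ranks 3798 and 3915, and in 3SA muscle, at chr8:71380753-71381233 with a score of 70 and rank 4249.

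The remaining COUP-TF and testicular receptor genes were ranked lower. *Nr2f2* had 1 peak in each list, at 4 different positions, with the best at rank 4147 in WT liver. *Nr2f1* had 1 in 3SA muscle and 1 in WT liver. *Nr2c1* was bound in both muscle lists and in neither liver list within 20 kb, at chr10:94161176-94161799 in intron 2 in WT with a score of 49 and rank 4057, and at chr10:94144051-94144322 in 3SA with a score of 36 and rank 19604. The 3SA interval was annotated to the 3′ end of the neighbouring gene *Fgd6*, and the WT muscle list also held a lower-ranked peak in intron 1, at 302 bp. *Nr2c2* and the photoreceptor receptor *Nr2e3* each had 2 peaks in 3SA muscle, and *Nr2c2* 1 in 3SA liver. The better-ranked *Nr2c2* peak of 3SA muscle and that of 3SA liver were annotated to an intron of *Fgd5*.

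The steroid receptors were led by *Nr3c2*, which encodes the mineralocorticoid receptor. Its site lay in intron 2 of 8, 18483 to 18631 bp from the TSS and at least 329226 bp from the next gene. It was called at chr8:76920812-76921200 in WT liver with a score of 278 and rank 995, and at chr8:76920784-76921495 in 3SA liver with a score of 633 and rank 471. In 3SA muscle it was called at chr8:76920849-76921133 with a score of 74 and rank 3595, and WT muscle had no peak for this gene at any distance. The glucocorticoid receptor gene *Nr3c1* had 1 peak per list at the same place, 4062 to 4432 bp upstream, at ranks 4057, 5574, 9851 and 5225, which lie between the top 11.0% and the top 45.2%. *Esr2* was bound in both muscle lists and in neither liver list. It had chr12:76182227-76182638 in WT with a score of 36 and rank 10219, and in 3SA chr12:76176966-76177579 at the TSS and chr12:76195203-76195505 upstream, both with a score of 42 and rank 11987. *Esr1* had 1 peak in 3SA muscle at the lowest score of that list and 1 in WT liver at rank 9851.

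The NR4A receptors are immediate early genes that exercise induces in muscle. *Nr4a1* had 5 peaks in WT muscle and 6 in 3SA muscle, against 1 and 2 in WT and 3SA liver. Its promoter site, which holds the element printed above, was called only in muscle, at chr15:101265676-101266213 in WT with a score of 49 and rank 4057, and at chr15:101265672-101266387 in 3SA with a score of 65 and rank 4392. Those peaks were partners. The best-ranked *Nr4a1* peak in 3SA muscle, chr15:101247897-101248408, had a score of 91 and rank 2721 and no WT partner, and a site 9762 to 10184 bp upstream was called in all 4 lists. Within 20 kb, *Nr4a3* had 3 peaks in 3SA muscle and none in the other lists. The best was chr4:48031028-48031486, 14048 bp upstream in an LTR repeat, with a score of 139 and rank 1608. Farther out, *Nr4a3* had peaks in both muscle lists and in WT liver. *Nr4a2* had 1 peak within 20 kb, in WT muscle at the lowest score of the list, and farther peaks in WT muscle and both liver lists.

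*Nr0b2* (SHP), a corepressor of bile acid synthesis, was bound in all 4 lists, with higher ranks in liver. Its promoter was covered by chr4:133552187-133554340 in WT liver with a score of 104 and rank 3500, and by its partner chr4:133551440-133554985 in 3SA liver with a score of 183 and rank 2997. A site 9961 to 10208 bp downstream of the TSS held the element printed above. It ranked highest in 3SA liver, at chr4:133563133-133564036 with a score of 222 and rank 2298, and was also called in WT liver at rank 7108 and in 3SA muscle at rank 5574. The centre of that 3SA liver interval was annotated to a SINE repeat and those of the other intervals to an LTR. The only WT muscle peak of *Nr0b2* was a different one, at the 3′ end of the gene with the lowest score of the list. *Nr5a2* (LRH-1), an activator of bile acid genes, had an intron 1 site shared by both liver genotypes at ranks 3500 and 3426, and a single peak at the lowest score in 3SA muscle. *Nr5a1*, the steroidogenic factor of adrenal and gonad, was bound in both muscle lists and in neither liver list. The peaks were chr2:38723314-38723794, chr2:38708771-38709353 and chr2:38705066-38705394 in WT, the first with a score of 42 and rank 6260 and annotated to *Nr6a1*, and chr2:38692412-38692935 in 3SA with the lowest score of the list. *Nr6a1* itself was bound in 3SA liver alone, at rank 6623.

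**Figure D2:**
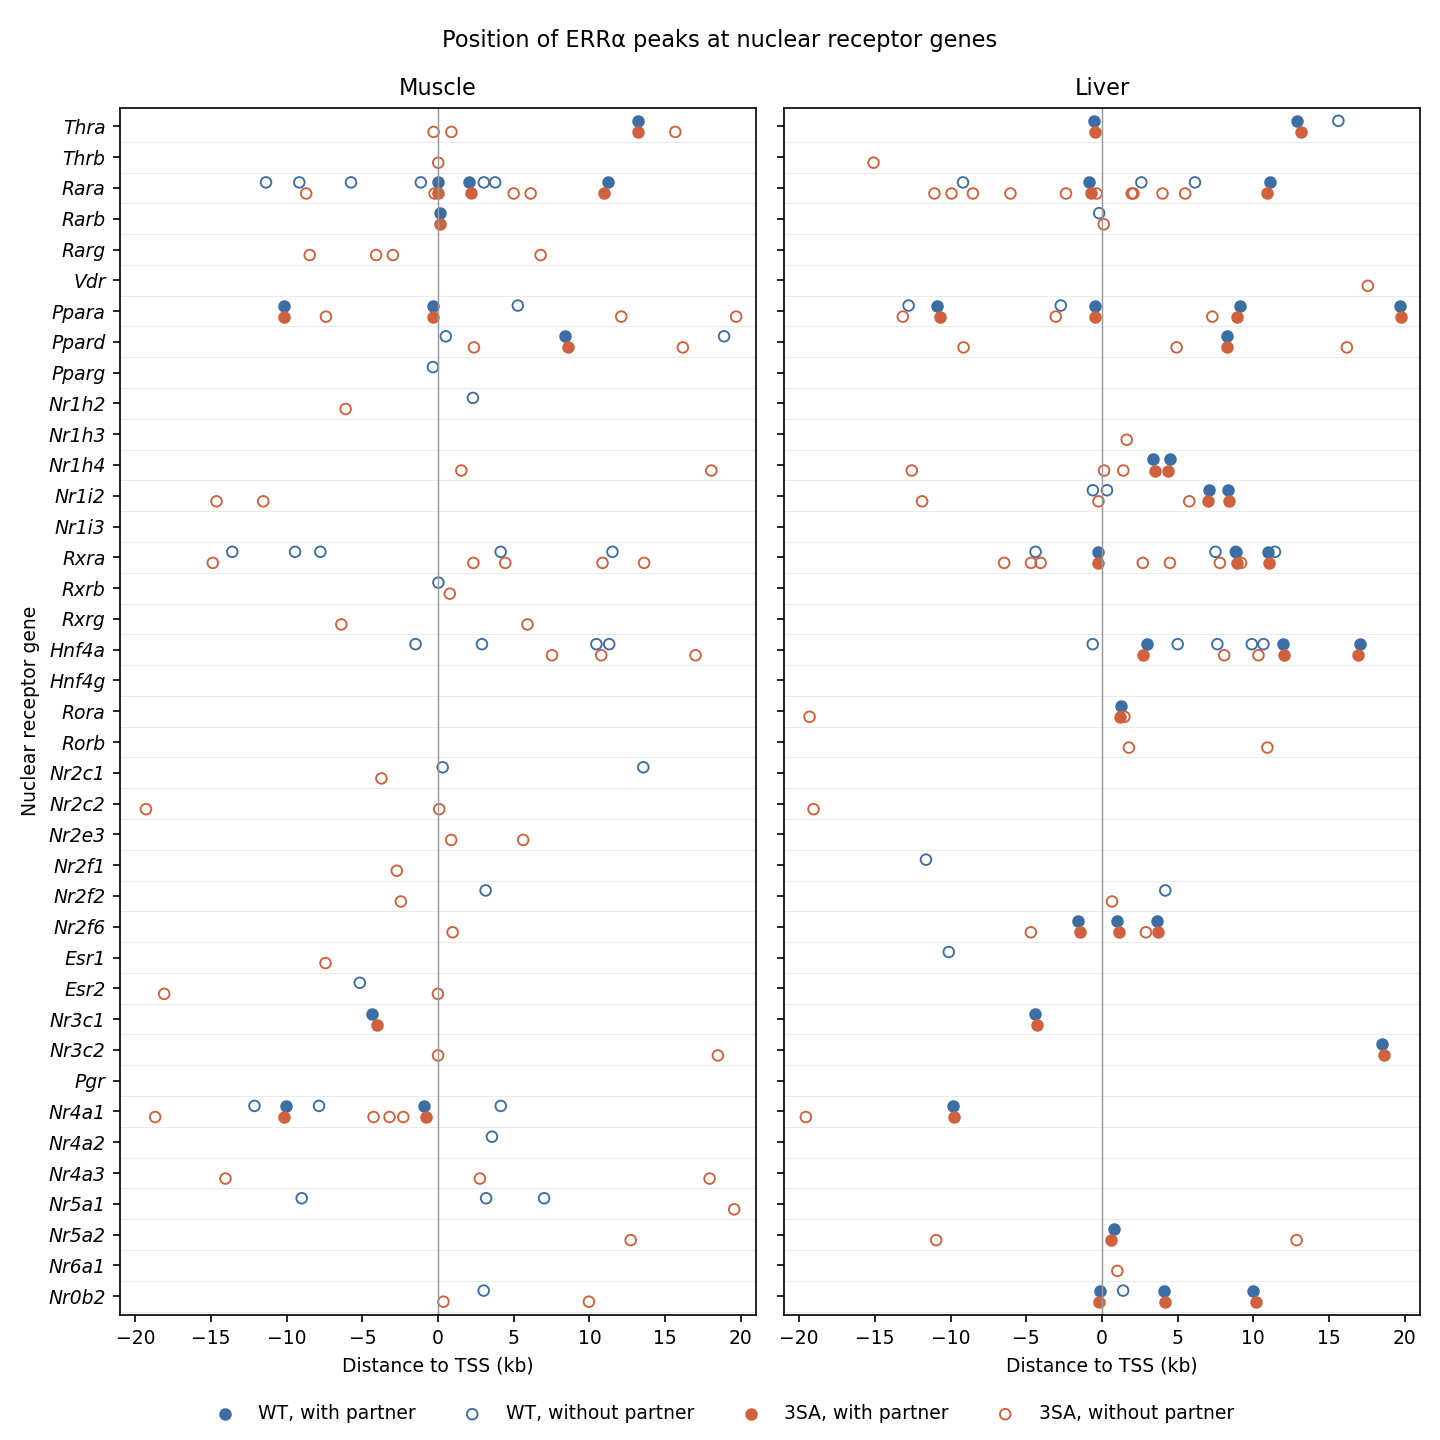
Distance from the TSS (kb, negative upstream) of every ERRα peak within 20 kb of a receptor gene, in muscle (left) and liver (right), with WT in blue and 3SA in orange. Filled points have a partner in the other genotype of the same tissue, with centres within 300 bp, and open points have none. Partner pairs are more frequent in the liver panel, where 30 of the 77 3SA peaks are filled, against 11 of 68 in muscle.

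Sharing between the genotypes was compared first by gene. In muscle, 16 receptor genes were bound in both genotypes, 13 in 3SA alone and 2 in WT alone, or 41.0% (27.1–56.6), 33.3% (20.6–49.0) and 5.13% (1.42–16.9). The backgrounds were 25.6%, 22.4% and 8.94%. In liver the numbers were 17, 6 and 2, or 43.6% (29.3–59.0), 15.4% (7.25–29.7) and 5.13% (1.42–16.9), against backgrounds of 22.6%, 15.0% and 7.28%. The background lay under the interval of the share bound in both genotypes in each tissue, and inside the interval of the shares bound in 1 genotype alone. Over the genes that any list names, 33.3% were bound in both genotypes in muscle and 29.3% in liver, inside the muscle interval and at the lower bound of the liver one. With lists of equal length, the muscle lists held 12 receptor genes bound in 3SA alone and 5 bound in WT alone, and 3 in each genotype of liver alone. The shares of all protein-coding genes were then 12.5% and 14.5% for 3SA and WT alone in muscle, and 10.6% and 9.09% in liver. *Rxrb* and *Nr4a2* are among the 5 bound in WT muscle alone only through the order of tied peaks. For the same reason *Nr1h2* and *Nr0b2*, whose tied WT peaks were not kept, are among the 12 bound in 3SA muscle alone.

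**Figure D3:**
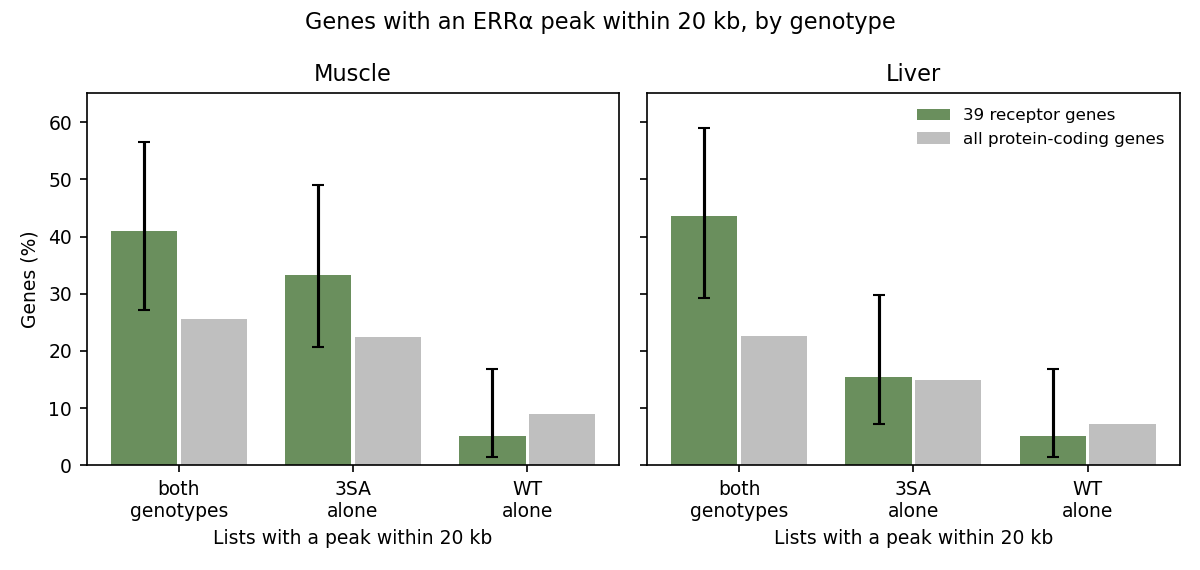
Share of genes (%) with an ERRα peak within 20 kb in both genotypes, in 3SA alone or in WT alone, in muscle and liver, for the 39 receptor genes (green, bars with 95% Wilson intervals covering counting error) and for all protein-coding genes (grey). The green bar for both genotypes is 41.0% in muscle and 43.6% in liver, above the grey bars of 25.6% and 22.6%, and the bars for a single genotype overlap the background within their intervals.

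The same comparison by position was stricter. A 3SA peak with a WT partner was found at 7 receptor genes in muscle, with a background of 10.4%, and at 15 in liver, with a background of 17.2%. The 7 muscle genes were *Thra*, *Rara*, *Rarb*, *Ppara*, *Ppard*, *Nr3c1* and *Nr4a1*. The other 9 receptor genes bound in both muscle genotypes had no partner by this rule, although a WT and a 3SA interval of *Rxra*, both with the lowest score of their list, share bases. In liver, only *Rarb* and *Nr2f2* were bound in both genotypes without a partner. By peak, 16.2% of the 3SA muscle peaks of receptor genes had a WT partner (9.28–26.7) and 30 of the 77 of 3SA liver did (28.8–50.1%), and over all peaks within 20 kb the shares were 12.9% and 34.2%, inside both intervals. Among peaks in the top 10%, 7 of 14 receptor peaks in 3SA muscle and 6 of 9 in 3SA liver had a partner, against 4 of 54 and 24 of 68 of the rest. All peaks within 20 kb showed the same order, with partners for 52.1% and 87.2% of 3SA muscle and 3SA liver peaks in the top 10% and for 7.35% and 27.3% of the rest.

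Where a receptor gene was bound in both genotypes, its best peak stood at a smaller top percentage in 3SA for 12 of 16 genes in muscle (75.0%, 50.5–89.8) and for 13 of 17 in liver (76.5%, 52.7–90.4). Over all genes bound in both genotypes the shares were 70.8% and 63.9%, inside these intervals. By rank number, which does not scale with list length, the best peak had the smaller rank in 3SA for 6 of 16 receptor genes in muscle (37.5%) and 10 of 17 in liver (58.8%), against 34.8% and 45.2% of all genes bound in both genotypes. The direction in muscle thus depends on whether rank or percentage is used.

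**Figure D4:**
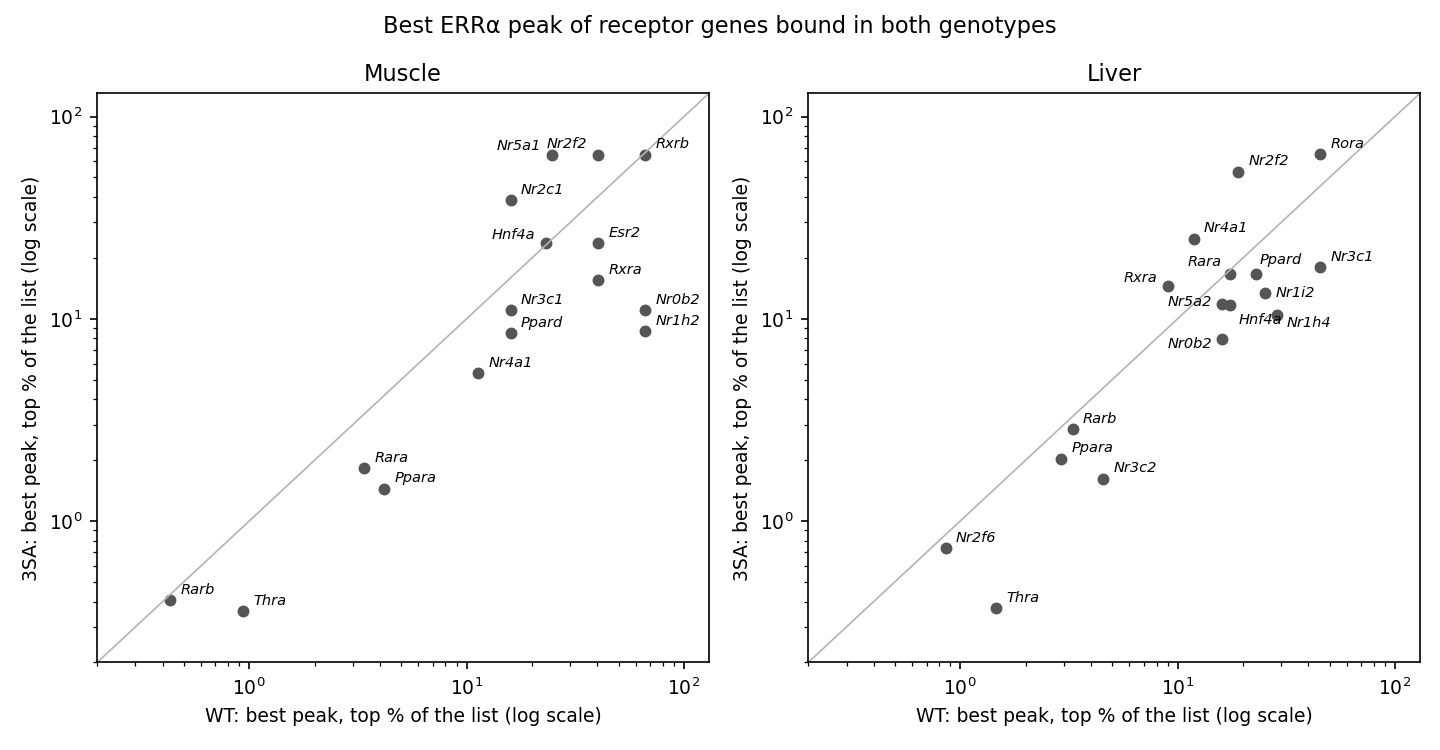
Best peak of each receptor gene bound in both genotypes, as the top percentage of the WT list (x axis) and of the 3SA list (y axis), both on log scales, in muscle (16 genes) and liver (17 genes). The grey line marks equal percentages and points under it ranked higher in 3SA, which holds for 12 genes in muscle and 13 in liver. *Rarb* and *Thra* lie lowest in muscle and *Thra* and *Nr2f6* in liver.

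Across tissues, 11 receptor genes were bound in both WT lists (28.2%, 16.5–43.8) and 18 in both 3SA lists (46.2%, 31.6–61.4). The backgrounds were 16.9% and 26.9%, and only that of WT lay inside the interval. Over the genes that any list names they were 21.8% and 34.9%, inside both intervals. The 11 WT genes were bound in 3SA in both tissues as well, so 11 of 39 were bound in all 4 lists (28.2%, 16.5–43.8). The background was 12.5% over all protein-coding genes and 16.0% over the genes that any list names. The 11 genes were *Thra*, *Rara*, *Rarb*, *Ppara*, *Ppard*, *Rxra*, *Hnf4a*, *Nr2f2*, *Nr3c1*, *Nr4a1* and *Nr0b2*. Binding in both genotypes of muscle and in neither of liver was found for 5 receptor genes (12.8%, 5.60–26.7, all protein-coding genes 6.45%), and the reverse for *Rora* (2.56%, 0.454–13.2, all genes 3.04%). When peaks of the 4 lists were grouped into sites by centres within 300 bp of each other, the receptor genes held 172 sites. Of these, 126 were called in a single list (73.3%, 66.2–79.3), against 80.8% of all 49659 sites. There were 7 sites in all 4 lists (4.07%, 1.99–8.16, all sites 2.85%), 1 each at *Thra*, *Rara*, *Rarb*, *Ppara*, *Ppard*, *Nr3c1* and *Nr4a1*.

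By annotation, the receptor peaks were mostly intronic, with 56.8% (42.2–70.3) in WT muscle, 51.5% (39.8–62.9) in 3SA muscle, 63.5% (49.9–75.2) in WT liver and 66.2% (55.1–75.8) in 3SA liver. All peaks within 20 kb were intronic in 45.7%, 47.0%, 48.3% and 48.2%, which lies under the interval of the receptor peaks in both liver lists. Promoter peaks made up 13.6% and 13.2% of receptor peaks in WT and 3SA muscle and 15.4% and 9.09% in WT and 3SA liver, against 11.9%, 8.18%, 11.0% and 12.0% of all peaks. Fewer receptor peaks were centred in an annotated repeat. The share was 6.82% (2.35–18.2) in WT muscle, 14.7% (8.19–25.0) in 3SA muscle, 9.62% (4.18–20.6) in WT liver and 9.09% (4.47–17.6) in 3SA liver, against 16.9%, 19.7%, 25.0% and 22.6% of all peaks within 20 kb, above the receptor interval in both liver lists only. Gene length was not taken into account in any of these shares.

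The ERR response element TCAAGGTCA, searched on both strands in the central 300 bp, was present in 1 of 44 receptor peaks in WT muscle (2.27%, 0.402–11.8), 6 of 68 in 3SA muscle (8.82%, 4.11–17.9), 4 of 52 in WT liver (7.69%, 3.03–18.2) and 8 of 77 in 3SA liver (10.4%, 5.36–19.2). Over all peaks within 20 kb the shares were 4.45%, 4.86%, 15.2% and 14.9%, each inside the interval of the receptor peaks. The shorter core AAGGTCA, which every TCAAGGTCA also contains and which was added after seeing the data, was present in 18.2% (9.51–32.0), 29.4% (19.9–41.1), 36.5% (24.8–50.1) and 31.2% (21.9–42.2) of receptor peaks. Over all peaks it was present in 13.8%, 15.2%, 35.8% and 35.5%, so only in 3SA muscle did the interval of the receptor peaks lie above the share of all peaks. The best sites of *Thra*, *Rarb*, *Rara*, *Ppara*, *Nr2f6* and *Nr3c2* had no TCAAGGTCA in that window. Of the RefSeq promoter sequences, 0.423% held TCAAGGTCA, and none of the 52 that belong to a receptor gene did.

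**Figure D5:**
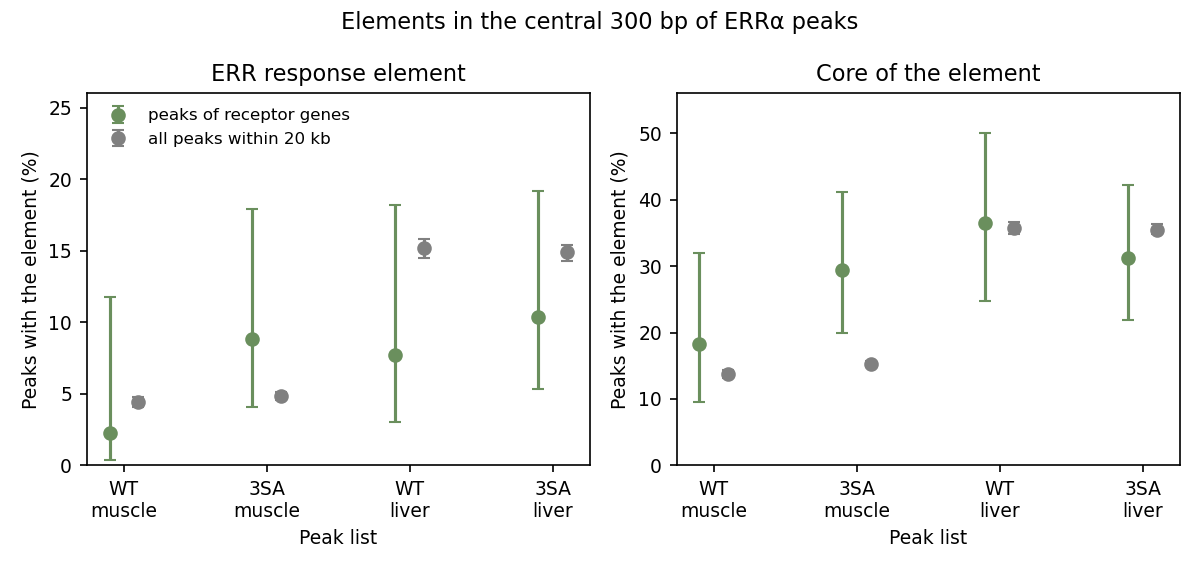
Share of ERRα peaks (%) whose central 300 bp hold the ERR response element (left) or its shorter core (right), for receptor peaks (green) and all peaks within 20 kb (grey) in the 4 lists. Points are shares and bars 95% Wilson intervals covering counting error. For the element, all peaks go from 4.45% and 4.86% in muscle to 15.2% and 14.9% in liver, and the green and grey intervals for the core are apart only in 3SA muscle.

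Receptors act through coregulators, and 16 coregulator genes were counted beside them. Of these 16, 9 were bound in WT muscle, 8 in 3SA muscle and 9 in each liver list. By the same rule, 34.5% and 47.9% of all protein-coding genes were bound in WT and 3SA muscle and 29.9% and 37.7% in WT and 3SA liver. Over the genes that any list names, the shares in the same order were 45.1%, 63.5%, 39.2% and 49.2%. *Med1*, which links receptors to the Mediator complex, had the best-ranked coregulator peak in all 4 lists, at ranks 265 and 176 in WT and 3SA muscle and 68 and 74 in WT and 3SA liver. These ranks were ahead of the best receptor site of the same list in WT liver (*Nr2f6* at 187), 3SA liver (*Thra* at 108) and 3SA muscle (*Thra* at 181), but not in WT muscle (*Rarb* at 110).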

How the data were processed

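The values start from 4 deposited peak lists of ERRα ChIP-seq, 1 per tissue (skeletal muscle, liver) and genotype (WT, 3SA). The 4 input samples served the authors in peak calling and hold no values used here. The authors used Trimmomatic 0.36 for trimming, BWA 0.7.12 for mapping to mm10 and Picard 2.0.1 for removing duplicates, called peaks against input with MACS2 2.1.1.20160309 and annotated them with HOMER 4.9.1. As deposited, peaks carry a score from the peak caller, whose scale the headers do not state, CpG and GC contents as a fraction of the interval, and a distance to the nearest TSS. Intervals vary in width, although the paper's methods describe fixed windows around summits. The labels give 3 pooled immunoprecipitations, the paper's methods another number. The depth is unknown, as the lists hold no read numbers.

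Peaks were taken with a distance to the TSS of at most 20000 bp and by the authors' gene name. The background is all RefSeq protein-coding genes, matched by gene ID. Partners have centres within 300 bp, sites chain such centres over the 4 lists, and elements were searched in the central 300 bp of intervals on GRCm38.p6, where the GC content of every receptor peak equalled the deposited one. Promoters come from RefSeq sequence tables of 250 bases before to 50 after each start. The members and lists were chosen with earlier results of these data known. Full intervals are given for receptor genes with a peak in the top 10% of a list and for those bound in both genotypes of 1 tissue and in neither of the other, and elements for those with TCAAGGTCA in a top 10% peak. The *Rarb* promoter and the AAGGTCA sequences were chosen after their values were seen.

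Alternatives were a score of at least 50, lists of equal length, a distance of 5000 bp, centres within 1000 bp, at least 1 shared base, the motif TNAAGGTCA, the whole interval and, chosen after seeing the data, AAGGTCA. Overlap and motif search were tested on simulated data. Python 3.11.15 with numpy 2.4.6, pandas 2.3.3, pysam 0.24.0 and matplotlib 3.10.9 was used.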

Additional observations from a re-analysis of the deposited data

Results flagged for a closer look

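Several values of receptor genes moved in opposite directions between WT and 3SA in the 2 tissues, and none of these differences was tested. From WT to 3SA, *Rara* went from 9 to 7 peaks in muscle, a change of -2, and from 5 to 12 in liver, a change of 7. *Thra* gained 3 peaks in muscle and changed by -1 in liver. *Nr2f1*, *Esr1* and *Nr0b2* each changed by 1 in muscle and by -1 in liver. The share of receptor peaks in the top 10% of the list changed by 9.22 percentage points in muscle, from 11.4% to 20.6%, and by -1.77 points in liver, from 13.5% to 11.7%. Over all peaks within 20 kb it went from 12.8% to 12.4% in muscle and from 12.3% to 11.5% in liver. The share within 1000 bp of the TSS changed by 3.88 points in muscle and by -4.95 points in liver, whereas over all peaks within 20 kb it went from 26.2% to 17.4% in muscle and from 20.6% to 22.6% in liver. All of these rest on small numbers of peaks in single libraries.

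Peaks of the receptor genes farther than 20 kb from a TSS entered no comparison, but some had high ranks. Of 129 such peaks in 3SA muscle and 51 in WT muscle, 13 and 2 were in the top 10% of their list. In WT liver it was 5 of 56 and in 3SA liver 7 of 70. By definition about 10% of all peaks of a list are in its top 10%, and these counts were near or under that share. The best of these far peaks was in an intron of *Ppara*, 36056 to 36129 bp from the TSS. It was at rank 170 in 3SA liver, rank 544 in WT liver and rank 1467 in 3SA muscle, with no WT muscle interval at this site. An upstream site of *Nr2c1*, 34122 to 34187 bp away, ranked 423 in WT liver, 631 in 3SA liver and 3020 in 3SA muscle, so this gene, which had no liver peak within 20 kb, had high-ranked liver peaks farther out. An intron site of *Pparg*, 48203 to 48332 bp from the TSS, was called in all 4 lists, at rank 1289 in WT liver, 1466 in 3SA liver, 3595 in 3SA muscle and 16894 in WT muscle. For *Thrb*, a site 27797 to 27969 bp upstream ranked 2776 in WT muscle, 4392 in 3SA muscle and 8204 in WT liver. For *Nr3c1*, a site lay 123996 to 124276 bp downstream of the TSS, assigned to this gene by nearest TSS only. It ranked 520 in WT liver, 505 in 3SA liver and 32824 in 3SA muscle. For *Rora*, an intron site 23757 to 23762 bp from the TSS ranked 2298 in 3SA liver and 4447 in WT liver. Another *Rora* intron site, 241557 to 241626 bp upstream, ranked 2967 in 3SA muscle and 6260 in WT muscle. The peaks of *Hnf4g* in this class were intergenic and at least 470172 bp from its TSS.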

How the results depend on the processing

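Of 60 alternative values, 39 stayed within 1.5 times the reported count or inside the interval of the reported share, and 21 moved. With a score of at least 50, the bound receptor genes fell to 5 in WT muscle and 15 in 3SA muscle (all protein-coding genes 8.07% and 13.5%), those bound in both muscle genotypes to 5 (5.48%) and in WT muscle alone to 0 (2.58%). Those bound in 3SA liver alone fell to 2 (8.97%), in WT liver alone to 1 (1.90%), and in both tissues to 5 in WT (4.50%) and 11 in 3SA (8.54%). TCAAGGTCA was then in 0 of 10 receptor peaks in WT muscle (0–27.8%) and in 4 of 20 in 3SA muscle (8.07–41.6%). These intervals overlap, and no share over all peaks is given at this score. With lists of equal length, 5 receptor genes were bound in WT muscle alone (14.5%) and 3 in 3SA liver alone (10.6%). The 5 depend in part on the order of tied peaks. Within 5000 bp, 5 were bound in WT muscle alone (9.34%), 0 in WT liver alone (4.97%) and 11 in both tissues in 3SA (14.1%). The share of 3SA liver peaks with a WT partner was 55.8% with centres within 1000 bp and 51.9% with 1 shared base. With AAGGTCA, chosen after seeing the data, the shares were 18.2% and 29.4% in WT and 3SA muscle and 36.5% and 31.2% in WT and 3SA liver, since every TCAAGGTCA also holds the shorter motif. The cause of the other shifts was not tested. No paired analysis was possible because each group is 1 library and the results come from no test, and no replicate could be left out for the same reason.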
